A study of Mus musculus with 16 samples.

Results

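The 36 genes described here encode RNA-binding proteins and spliceosome subunits, and were taken as every gene whose symbol begins with Srsf, Hnrnp, Sf3a or Sf3b and that has a probe set of its own on the array. They comprised 10 SR protein genes (Srsf), 17 heterogeneous nuclear ribonucleoprotein (hnRNP) genes (Hnrnp), 3 SF3a and 6 SF3b genes, of 19936 genes measured in all. Hnrnpa1, Hnrnpa1l2-ps2, Hnrnpa3 and Hnrnph3 occurred only in probe sets shared with other genes, and Hnrnpa1l2-ps, Srsf3-ps and Srsf7 had no probe set in the annotation used here, so no values are given for these 7 genes. Total RNA was hybridised to 16 single-colour Affymetrix arrays, 4 for each of 3 mouse brain tumour types and 4 for normal brain. PDGF+p53-/- tumours followed infection with a retrovirus encoding both PDGF-B and Cre in mice with floxed p53 and intact RBPjk. PDGF+p53-/-RBPjk-/- tumours followed the same infection in mice whose RBPjk, the DNA-binding partner of Notch, was floxed too. In p53-/-RBPjk-/- tumours the PDGF-B gene was wild type and no retrovirus is described, and a tamoxifen-dependent Cre under the Hes5 promoter deleted both genes in Hes5+ cells. Control brain was normal tissue, wild type for PDGF-B, p53 and RBPjk. The tumours carried a GFP reporter that Cre activates, by which they were located and cut out once the animals had symptoms, so host cells with intact genes can be part of a sample. The sources used here give no ages or strains, and the labels do not say that arrays of a group were separate animals, so p-values describe the spread between these samples, which may be in part technical.

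Splicing removes introns through the spliceosome, an assembly of small nuclear RNAs and their proteins. SF3a and SF3b are protein complexes of the U2 particle, which binds the branch point of the intron early in the reaction, and SF3b grips the branch point adenosine. SR proteins bind exonic enhancers through RNA recognition motifs and recruit spliceosome parts through arginine- and serine-rich tails, and most of them favour exon inclusion. hnRNPs coat nascent transcripts, often repress exons, and also act in RNA export, stability and translation. In brain these general factors act beside regulators made mainly by neurons, such as the Rbfox, Nova and Elavl families.

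Promoter sequence was available for 32 members from RefSeq, build GRCm38.p6. The 250 bases before the first listed start were searched on both strands for 5 short motifs. Of these 32 windows, 13 ended at the outer edge of the gene as listed in RefSeq, and the others ended elsewhere. The 6 windows below belong to members with large differences between tumours and control brain, of which Srsf12 was lower and the others higher, and to Sf3a3, the member that differed between tumour types. The windows are those of Srsf6 (chr2:162931258-162931507, plus strand), Srsf10 (chr4:135855821-135856070, plus strand), Srsf12 (chr4:33209022-33209271, plus strand), Hnrnpf (chr6:117900090-117900339, plus strand), Hnrnpab (chr11:51606882-51607131, minus strand) and Sf3a3 (chr4:124714611-124714860, plus strand). The Hnrnpf window precedes the first of 4 listed starts. Each is written 5′ to 3′ on the gene's strand, and capitals mark motif matches.
Srsf6: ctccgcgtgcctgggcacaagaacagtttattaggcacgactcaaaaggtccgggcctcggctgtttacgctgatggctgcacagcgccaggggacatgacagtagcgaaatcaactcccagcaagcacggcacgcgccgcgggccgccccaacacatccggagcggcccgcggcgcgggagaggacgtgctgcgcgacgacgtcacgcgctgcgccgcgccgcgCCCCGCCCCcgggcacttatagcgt
Srsf10: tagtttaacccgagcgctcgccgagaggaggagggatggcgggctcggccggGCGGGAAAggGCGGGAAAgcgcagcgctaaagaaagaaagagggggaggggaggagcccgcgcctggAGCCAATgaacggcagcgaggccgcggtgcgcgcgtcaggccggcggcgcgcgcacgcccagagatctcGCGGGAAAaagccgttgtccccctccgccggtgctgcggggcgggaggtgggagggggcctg
Srsf12: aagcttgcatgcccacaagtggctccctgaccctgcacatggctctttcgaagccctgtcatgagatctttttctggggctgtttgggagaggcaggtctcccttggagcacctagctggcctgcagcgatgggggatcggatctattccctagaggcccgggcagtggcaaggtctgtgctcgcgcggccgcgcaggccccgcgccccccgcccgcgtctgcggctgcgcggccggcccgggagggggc
Hnrnpf: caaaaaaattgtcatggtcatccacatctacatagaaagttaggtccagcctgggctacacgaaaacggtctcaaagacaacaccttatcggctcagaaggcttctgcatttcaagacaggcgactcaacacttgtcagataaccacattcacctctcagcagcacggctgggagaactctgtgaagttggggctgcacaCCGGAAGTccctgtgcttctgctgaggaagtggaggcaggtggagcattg
Hnrnpab: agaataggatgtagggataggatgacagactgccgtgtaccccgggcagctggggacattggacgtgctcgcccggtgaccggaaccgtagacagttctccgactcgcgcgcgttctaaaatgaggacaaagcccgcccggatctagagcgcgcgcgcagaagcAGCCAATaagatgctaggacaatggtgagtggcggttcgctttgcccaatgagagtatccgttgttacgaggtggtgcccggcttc
Sf3a3: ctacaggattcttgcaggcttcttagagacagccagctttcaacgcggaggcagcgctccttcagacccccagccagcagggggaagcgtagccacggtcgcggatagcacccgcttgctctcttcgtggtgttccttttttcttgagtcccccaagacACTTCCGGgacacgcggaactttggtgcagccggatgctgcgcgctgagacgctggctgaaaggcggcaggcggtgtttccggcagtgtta

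The capitals are a GC box in Srsf6, 3 E2F matches and an NF-Y match in Srsf10, an NF-Y match in Hnrnpab, and an ETS match in Hnrnpf and in Sf3a3, while the Srsf12 window held none of the 5 motifs. The E2F motif TTTCCCGC, after a family of cell cycle factors, was present in 3 of 32 members (9.38%) and 0.929% of all 27025 windows, and its holders were Srsf10, Hnrnpul1 and Srsf1. The NF-Y motif AGCCAAT was present in 6 of 32 members (18.8%) and 7.61% of all 27025 windows. ETS letters (CCGGAAGT) occurred in 6 of 32 members (18.8%) and 2.93% of all 27025 windows. GC box letters (GGGGCGGGG) occurred in 9 of 32 members (28.1%) and 10.5% of all 27025 windows, and some matches in a window overlapped each other. E-box letters (CACGTG) occurred in 1 of 32 members (3.12%) and 6.05% of all 27025 windows. The windows of all genes, 1 for each, leave out those of a chromosome that holds no member. A match says only that these letters lie in the window.

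Arrays of a group correlated with r between 0.971 and 0.989 across genes. The tumour arrays carried tumour tissue by their markers: all 8 oligodendrocyte precursor markers and all 11 measured proliferation markers were higher than in control brain in each tumour type, and all 11 measured neuron markers were lower. PDGF+p53-/- replicate 3 stood apart, with a neuron list mean of 8.57 (log2) against 6.96 to 7.21 in the other 3 arrays of its group. Replicate 3 also had the highest neuron mean in PDGF+p53-/-RBPjk-/- tumours, at 8.09 against 6.68 to 7.23 in the other 3, and in p53-/-RBPjk-/- tumours, at 7.45 against 5.98 to 6.48. Control brain replicate 3 (10.46) lay within its group, and the labels do not say what a shared number marks. Rbpj, the floxed gene, measured 8.50, 8.41, 8.19 and 8.17 in PDGF+p53-/- tumours, 7.69, 7.88, 7.55 and 7.81 in PDGF+p53-/-RBPjk-/- tumours and 7.76, 7.64, 7.81 and 7.93 in p53-/-RBPjk-/- tumours, against 8.11, 8.21, 7.76 and 7.96 in control brain. Its values in both RBPjk-/- tumour types lay below those in PDGF+p53-/- tumours and overlapped with control brain. Pdgfb, labelled as overexpressed in both PDGF types, ranged from 5.81 to 6.31 and 5.88 to 6.19 there and from 5.23 to 5.77 in p53-/-RBPjk-/- tumours, against 5.69 to 6.20 in control brain. Whether the Pdgfb probe set reads the viral transcript, or the Rbpj probe set the deleted exons, was not stated, and p53 itself had no probe set of its own. By Xist and Y-linked expression, arrays looked female in 1 of 4 PDGF+p53-/-, 1 of 4 PDGF+p53-/-RBPjk-/-, 4 of 4 p53-/-RBPjk-/- and 2 of 4 control brain samples.

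Most members were higher in tumours than in control brain. In PDGF+p53-/- tumours 20 of 36 were higher and 1 was lower at an adjusted p under 0.05 in the limma fit over all genes, where 13.6% of all genes were higher, 17.6% lower and 31.1% changed either way. In PDGF+p53-/-RBPjk-/- tumours the counts were 20 higher and 1 lower, against 15.7%, 17.9% and 33.6% of all genes. In p53-/-RBPjk-/- tumours 22 members were higher and 1 was lower, against 16.4%, 20.4% and 36.8% of all genes. The changed members were 58.3%, 58.3% and 63.9% of the 36 in these 3 comparisons, which share the control arrays. The median log2 difference of the members was 0.39 in PDGF+p53-/-, 0.39 in PDGF+p53-/-RBPjk-/- and 0.47 in p53-/-RBPjk-/- tumours, where the median of all 19936 genes was -0.04, -0.03 and -0.02. Values of the 4 tumour arrays lay wholly above those of control brain for 19 members in PDGF+p53-/- tumours (12.7% of all genes), 19 in PDGF+p53-/-RBPjk-/- (16.5%) and 23 in p53-/-RBPjk-/- tumours (15.1%). They lay wholly below for 1, 1 and 3 members in the same order of tumour types, against 17.3%, 18.0% and 19.3% of all genes. Sf3b4, whose probe sets disagreed, was among the members called higher in both RBPjk-/- types. It was also among those wholly above control brain in all 3 tumour types. Without replicate 3 of the tumour type, the counts were 20 higher and 1 lower in PDGF+p53-/-, 18 and 1 in PDGF+p53-/-RBPjk-/-, and 21 and 1 in p53-/-RBPjk-/- tumours. The tumour arrays that remained still had neuron list means of 5.98 to 7.23, against 10.40 to 10.51 in control brain. The part of the neuron level in the counts was not tested. Differences were modest in size, and 2, 2 and 5 members exceeded 1 on the log2 scale (above 2-fold) in PDGF+p53-/-, PDGF+p53-/-RBPjk-/- and p53-/-RBPjk-/- tumours. Since neuron markers fell and proliferation markers rose in the same samples, a difference can come from other proportions of cells or from other RNA amounts per cell, and these cannot be told apart in bulk tissue.

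**Figure D1:**
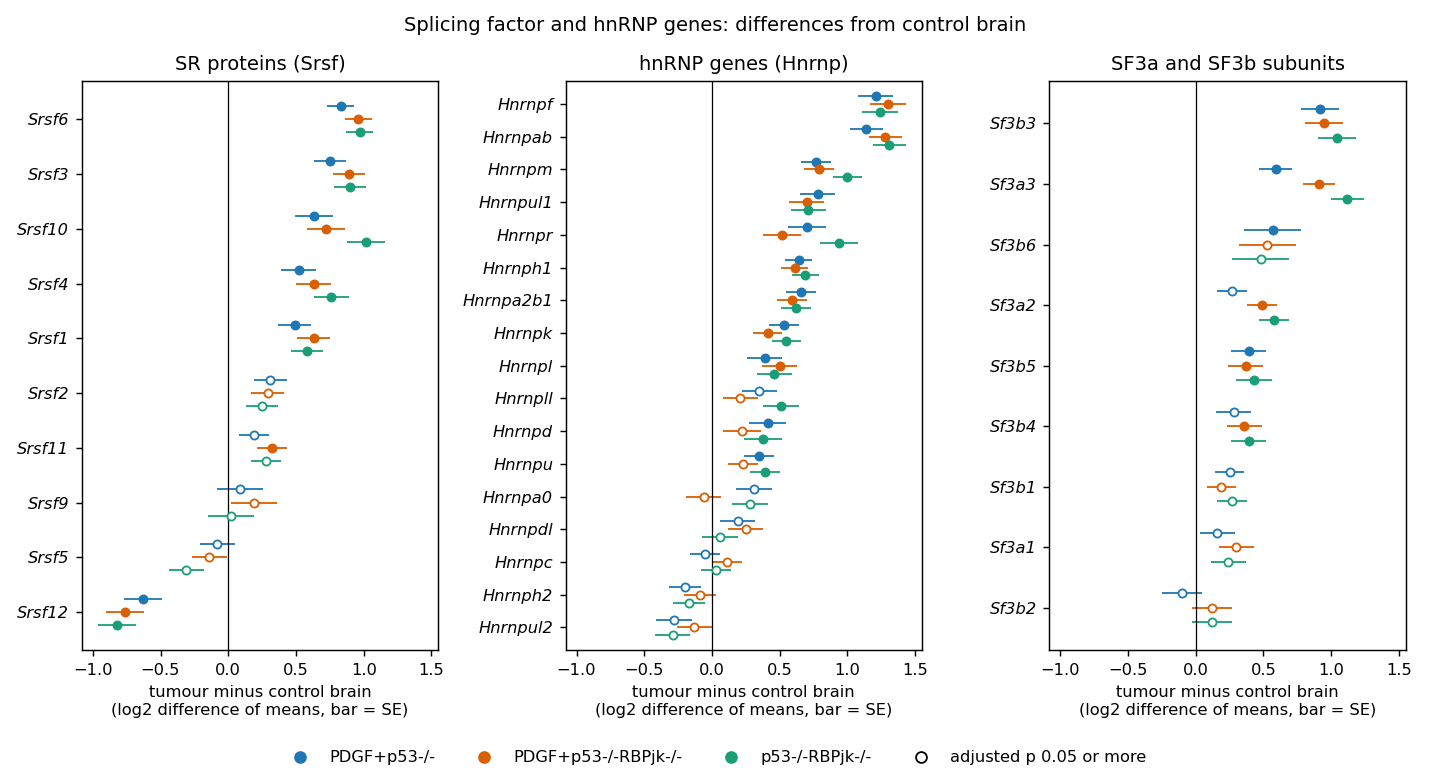
Each point is the difference of mean log2 values, tumour minus control brain (horizontal axis, log2), for 1 gene in 1 tumour type (colour), with bars of 1 SE; open points have an adjusted p of 0.05 or more, and each panel is 1 family, ordered by mean difference. Most points lie right of 0, Hnrnpf and Hnrnpab exceed 1 in all 3 tumour types, and Srsf12 has 3 filled points left of 0.

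Of the 10 SR protein genes, 5 rose in PDGF+p53-/-, 6 in PDGF+p53-/-RBPjk-/- and 5 in p53-/-RBPjk-/- tumours, and Srsf12 fell in each. Srsf6, an SR protein that binds exonic enhancers, had log2 values of 9.24, 9.10, 9.17 and 9.31 in PDGF+p53-/- tumours, 9.16, 9.44, 9.35 and 9.34 in PDGF+p53-/-RBPjk-/- tumours and 9.38, 9.33, 9.27 and 9.38 in p53-/-RBPjk-/- tumours, against 8.30, 8.38, 8.24 and 8.55 in control brain. All 12 tumour values lay above all 4 control values. Its differences from control brain were 0.83 ± 0.10 (adjusted p = 6.85e-06) in PDGF+p53-/-, 0.96 ± 0.10 (adjusted p = 1.34e-06) in PDGF+p53-/-RBPjk-/- and 0.97 ± 0.10 (adjusted p = 7.37e-07) in p53-/-RBPjk-/- tumours, as log2 difference ± SE with the limma p adjusted over all genes. On a linear scale these are 1.78-, 1.94- and 1.96-fold.

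Srsf3, the smallest SR protein and an adaptor for mRNA export, measured 11.53, 11.56, 11.23 and 11.43 in PDGF+p53-/- tumours, 11.53, 11.76, 11.48 and 11.53 in PDGF+p53-/-RBPjk-/- tumours and 11.79, 11.43, 11.65 and 11.50 in p53-/-RBPjk-/- tumours, against 10.55, 10.85, 10.63 and 10.74 in control brain. No tumour array reached down to the control arrays. The Srsf3 differences were 0.75 ± 0.12 (adjusted p = 9.41e-05) in PDGF+p53-/-, 0.89 ± 0.12 (adjusted p = 1.36e-05) in PDGF+p53-/-RBPjk-/- and 0.90 ± 0.12 (adjusted p = 8.05e-06) in p53-/-RBPjk-/- tumours. Srsf10 acts as a splicing repressor when it loses its phosphates, as in heat shock and mitosis. Its values were 10.93, 10.61, 10.67 and 10.41 in PDGF+p53-/- tumours, 10.82, 10.73, 10.65 and 10.78 in PDGF+p53-/-RBPjk-/- tumours and 11.16, 11.02, 11.28 and 10.73 in p53-/-RBPjk-/- tumours, against 9.97, 10.28, 10.00 and 9.84 in control brain. Tumour and control values did not overlap, and 3 of the 4 p53-/-RBPjk-/- values lay above those of all other arrays. The Srsf10 differences from control brain were 0.63 ± 0.14 (adjusted p = 0.00193) in PDGF+p53-/-, 0.72 ± 0.14 (adjusted p = 0.00055) in PDGF+p53-/-RBPjk-/- and 1.02 ± 0.14 (adjusted p = 1.22e-05) in p53-/-RBPjk-/- tumours.

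Srsf4, one of the larger SR proteins, measured 9.61, 9.63, 9.38 and 9.62 in PDGF+p53-/- tumours, 9.43, 9.96, 9.63 and 9.62 in PDGF+p53-/-RBPjk-/- tumours and 9.64, 9.92, 9.95 and 9.66 in p53-/-RBPjk-/- tumours, against 8.97, 9.17, 8.87 and 9.11 in control brain. The lowest tumour value, in PDGF+p53-/- replicate 3, still lay above the highest control value. Srsf4 differed from control brain by 0.52 ± 0.13 (adjusted p = 0.00389) in PDGF+p53-/-, 0.63 ± 0.13 (adjusted p = 0.000825) in PDGF+p53-/-RBPjk-/- and 0.76 ± 0.13 (adjusted p = 0.000109) in p53-/-RBPjk-/- tumours. Srsf1, the founding SR protein and in human cancers a known oncogene, measured 9.87, 9.82, 9.90 and 9.67 in PDGF+p53-/- tumours, 10.03, 10.10, 9.89 and 9.83 in PDGF+p53-/-RBPjk-/- tumours and 10.09, 9.77, 10.02 and 9.75 in p53-/-RBPjk-/- tumours, against 9.39, 9.15, 9.22 and 9.56 in control brain. Again tumour and control values did not overlap, and the control arrays spread more widely (SD 0.18) than the PDGF+p53-/- arrays (SD 0.103). The Srsf1 differences were 0.49 ± 0.12 (adjusted p = 0.00471) in PDGF+p53-/-, 0.63 ± 0.12 (adjusted p = 0.000526) in PDGF+p53-/-RBPjk-/- and 0.58 ± 0.12 (adjusted p = 0.000943) in p53-/-RBPjk-/- tumours.

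Srsf12 is known from human proteins as an SR protein that counteracts other SR proteins in splicing extracts. It measured 6.64, 6.47, 6.73 and 6.44 in PDGF+p53-/- tumours, 6.30, 6.34, 6.52 and 6.61 in PDGF+p53-/-RBPjk-/- tumours and 6.42, 6.63, 5.98 and 6.49 in p53-/-RBPjk-/- tumours, against 7.02, 7.19, 7.29 and 7.32 in control brain. Every tumour array lay below every control array, and p53-/-RBPjk-/- replicate 3 was the lowest. The Srsf12 differences were -0.63 ± 0.14 (adjusted p = 0.00163) in PDGF+p53-/-, -0.76 ± 0.14 (adjusted p = 0.000272) in PDGF+p53-/-RBPjk-/- and -0.82 ± 0.14 (adjusted p = 0.000103) in p53-/-RBPjk-/- tumours. The 11 measured neuron markers fell in the same tumours, and their part in the Srsf12 difference was not tested. Srsf11, a cofactor of 3′ splice site recognition, averaged 9.19 in PDGF+p53-/-, 9.32 in PDGF+p53-/-RBPjk-/- and 9.28 in p53-/-RBPjk-/- tumours, against 9.0 in control brain. It passed the threshold in PDGF+p53-/-RBPjk-/- tumours alone, by 0.32 ± 0.11 (adjusted p = 0.0377), and whether that difference departs from the 0.19 and 0.28 of the other tumour types was tested in the comparisons between tumours, where it did not pass. The Srsf11 call was lost without PDGF+p53-/-RBPjk-/- replicates 2 or 4 or control replicates 1, 3 or 4, with housekeeping centring, with array weights, with only the compared groups in the fit or with a sex term (adjusted p 0.0628 to 0.14).

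Srsf2, a marker protein of nuclear speckles, Srsf5 and Srsf9 did not pass in any tumour type. Srsf2 differences were 0.31 in PDGF+p53-/-, 0.29 in PDGF+p53-/-RBPjk-/- and 0.25 in p53-/-RBPjk-/- tumours (adjusted p 0.0532 to 0.104), with overlapping arrays. Those of Srsf5 were -0.08 in PDGF+p53-/-, -0.14 in PDGF+p53-/-RBPjk-/- and -0.31 in p53-/-RBPjk-/- tumours (adjusted p 0.0766 to 0.722), and its p53-/-RBPjk-/- arrays lay wholly below control brain. Those of Srsf9 were 0.09 in PDGF+p53-/-, 0.19 in PDGF+p53-/-RBPjk-/- and 0.02 in p53-/-RBPjk-/- tumours (adjusted p 0.449 to 0.947), and its PDGF+p53-/- arrays had the widest SD of any member in that group (0.411). Srsf2 passed in PDGF+p53-/- tumours without PDGF+p53-/- replicate 2 or control replicate 1, without dim genes, with trended robust eBayes or with a sex term (adjusted p 0.0145 to 0.0365), in PDGF+p53-/-RBPjk-/- tumours without control replicate 1, without dim genes, with array weights, with trended robust eBayes or with a sex term (adjusted p 0.0194 to 0.0488) and in p53-/-RBPjk-/- tumours without control replicate 1 (adjusted p = 0.0284). Srsf5 passed as lower in p53-/-RBPjk-/- tumours without PDGF+p53-/- replicate 4 or with a second quantile normalization (adjusted p 0.0197 to 0.0445), and Srsf11 as higher there without PDGF+p53-/-RBPjk-/- replicate 2, without dim genes, with housekeeping centring, with a second quantile normalization or with array weights (adjusted p 0.00583 to 0.0471).

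**Figure D2:**
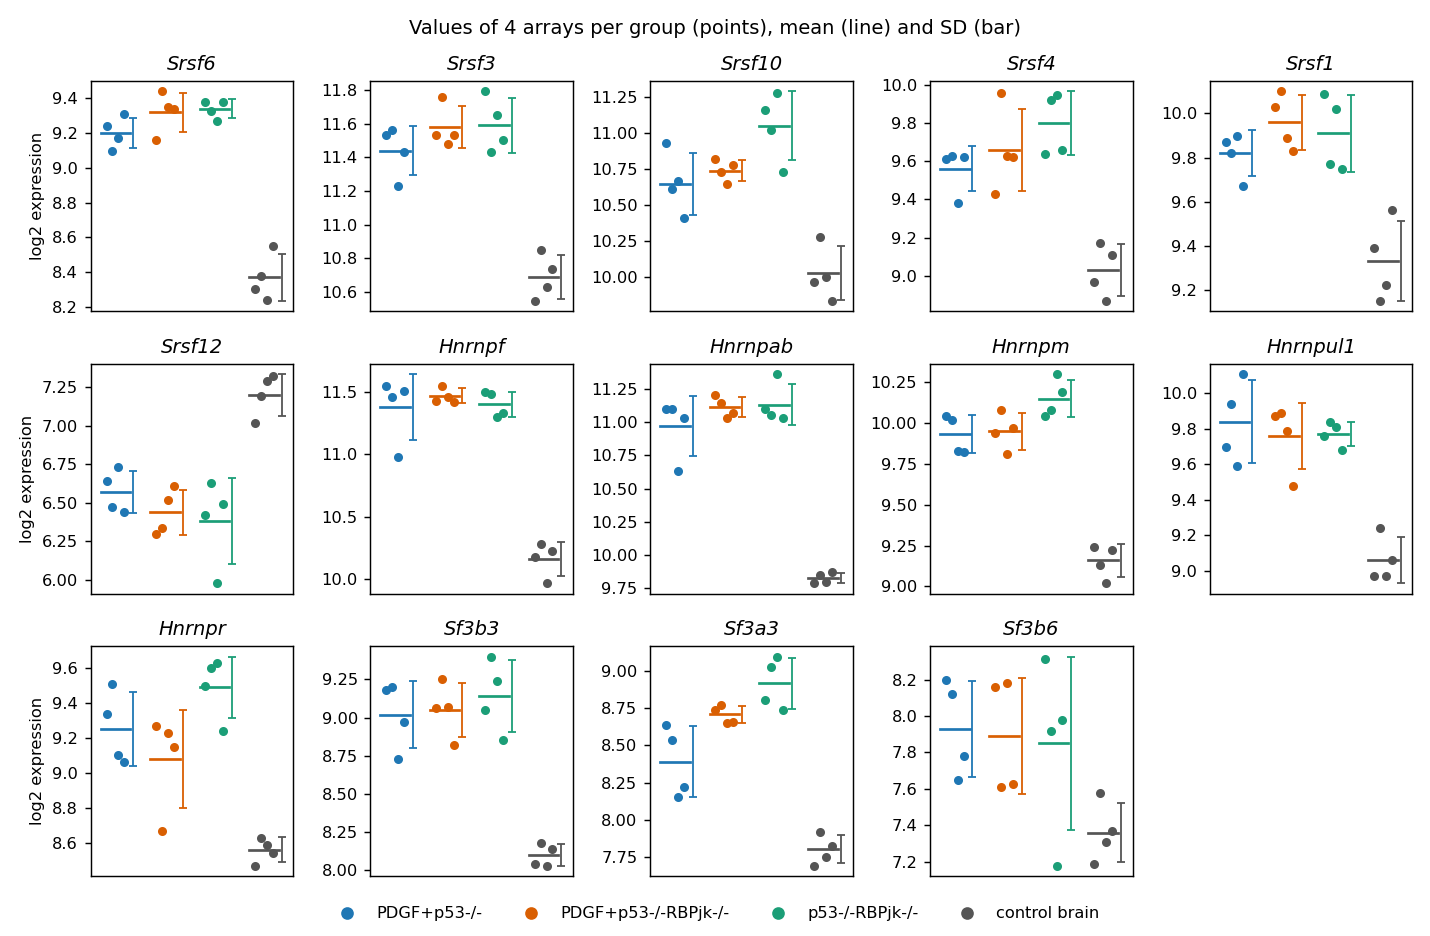
Log2 expression (vertical axis) of the 14 members described array by array: points are the 4 arrays of a group (replicates 1 to 4 from left to right), lines the group mean and bars the SD, with the 3 tumour types left of control brain. The control points lie lowest except for Srsf12, where they lie highest, and Sf3b6, whose p53-/-RBPjk-/- points reach into the control range.

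Of the 17 hnRNP genes, 11 rose in PDGF+p53-/-, 9 in PDGF+p53-/-RBPjk-/- and 12 in p53-/-RBPjk-/- tumours, and none passed as lower. Hnrnpf, which binds runs of G and thereby steers exon choice, measured 11.55, 11.46, 10.98 and 11.51 in PDGF+p53-/- tumours, 11.43, 11.55, 11.46 and 11.42 in PDGF+p53-/-RBPjk-/- tumours and 11.50, 11.48, 11.30 and 11.33 in p53-/-RBPjk-/- tumours, against 10.18, 10.28, 9.97 and 10.23 in control brain. The 12 tumour values all lay above the control values, and the lowest of them was PDGF+p53-/- replicate 3. The Hnrnpf differences were 1.21 ± 0.13 (adjusted p = 1.15e-06) in PDGF+p53-/-, 1.30 ± 0.13 (adjusted p = 4.44e-07) in PDGF+p53-/-RBPjk-/- and 1.24 ± 0.13 (adjusted p = 4.51e-07) in p53-/-RBPjk-/- tumours, or 2.31-, 2.47- and 2.36-fold. Hnrnpab, a protein that binds AU-rich RNA and single-stranded DNA, measured 11.10, 11.10, 10.63 and 11.03 in PDGF+p53-/- tumours, 11.20, 11.14, 11.03 and 11.07 in PDGF+p53-/-RBPjk-/- tumours and 11.10, 11.05, 11.36 and 11.03 in p53-/-RBPjk-/- tumours, against 9.79, 9.85, 9.80 and 9.87 in control brain. Groups did not overlap with control brain here either, and PDGF+p53-/- replicate 3 was again lowest among tumours. The Hnrnpab differences were 1.14 ± 0.12 (adjusted p = 1.13e-06) in PDGF+p53-/-, 1.28 ± 0.12 (adjusted p = 2.77e-07) in PDGF+p53-/-RBPjk-/- and 1.31 ± 0.12 (adjusted p = 1.27e-07) in p53-/-RBPjk-/- tumours.

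Hnrnpm, which binds GU-rich RNA and is known for its role in alternative splicing in human cancer cells, measured 10.04, 10.02, 9.83 and 9.82 in PDGF+p53-/- tumours, 9.94, 10.08, 9.81 and 9.97 in PDGF+p53-/-RBPjk-/- tumours and 10.04, 10.08, 10.30 and 10.19 in p53-/-RBPjk-/- tumours, against 9.24, 9.13, 9.02 and 9.22 in control brain. The p53-/-RBPjk-/- arrays reached highest, and no tumour array overlapped with control brain. Hnrnpm differed from control brain by 0.77 ± 0.11 (adjusted p = 2.18e-05) in PDGF+p53-/-, 0.79 ± 0.11 (adjusted p = 1.37e-05) in PDGF+p53-/-RBPjk-/- and 1.0 ± 0.11 (adjusted p = 8.16e-07) in p53-/-RBPjk-/- tumours. Hnrnpul1, a relative of Hnrnpu that takes part in the response to DNA breaks, measured 9.70, 9.94, 9.59 and 10.11 in PDGF+p53-/- tumours, 9.87, 9.89, 9.79 and 9.48 in PDGF+p53-/-RBPjk-/- tumours and 9.76, 9.84, 9.81 and 9.68 in p53-/-RBPjk-/- tumours, against 8.97, 9.24, 8.97 and 9.06 in control brain. Its tumour and control values did not overlap. The Hnrnpul1 differences were 0.78 ± 0.13 (adjusted p = 0.000147) in PDGF+p53-/-, 0.70 ± 0.13 (adjusted p = 0.000347) in PDGF+p53-/-RBPjk-/- and 0.71 ± 0.13 (adjusted p = 0.000242) in p53-/-RBPjk-/- tumours. Hnrnpr binds mRNAs such as that of actin in the axons of motor neurons. It measured 9.34, 9.51, 9.10 and 9.06 in PDGF+p53-/- tumours, 9.27, 8.67, 9.23 and 9.15 in PDGF+p53-/-RBPjk-/- tumours and 9.50, 9.60, 9.63 and 9.24 in p53-/-RBPjk-/- tumours, against 8.47, 8.63, 8.59 and 8.54 in control brain. The lowest tumour value (PDGF+p53-/-RBPjk-/- replicate 2, 8.67) lay just above the highest control value (8.63). The Hnrnpr differences were 0.70 ± 0.14 (adjusted p = 0.00112) in PDGF+p53-/-, 0.52 ± 0.14 (adjusted p = 0.00857) in PDGF+p53-/-RBPjk-/- and 0.94 ± 0.14 (adjusted p = 4.61e-05) in p53-/-RBPjk-/- tumours.

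Hnrnph1, Hnrnpa2b1, Hnrnpk and Hnrnpl also rose in each tumour type. Hnrnph1, the close paralogue of Hnrnpf, differed by 0.64 in PDGF+p53-/-, 0.61 in PDGF+p53-/-RBPjk-/- and 0.69 in p53-/-RBPjk-/- tumours (adjusted p 3.43e-05 to 0.000165). Hnrnpa2b1, which sorts and transports RNAs, differed by 0.66 in PDGF+p53-/-, 0.59 in PDGF+p53-/-RBPjk-/- and 0.62 in p53-/-RBPjk-/- tumours (adjusted p 9.98e-05 to 0.000272). Hnrnpk, a poly-C binding protein with KH domains, differed by 0.53 in PDGF+p53-/-, 0.41 in PDGF+p53-/-RBPjk-/- and 0.55 in p53-/-RBPjk-/- tumours (adjusted p 0.000805 to 0.00887). In these 3 genes no tumour array overlapped with control brain. The Hnrnpk call in PDGF+p53-/-RBPjk-/- tumours was lost with housekeeping centring (adjusted p = 0.0716). Hnrnpl, which binds CA repeats, differed by 0.39 in PDGF+p53-/-, 0.50 in PDGF+p53-/-RBPjk-/- and 0.46 in p53-/-RBPjk-/- tumours (adjusted p 0.0053 to 0.0265), with overlapping arrays in both PDGF types. Hnrnpl in PDGF+p53-/- tumours no longer passed without PDGF+p53-/- replicates 2 or 4 or control replicates 1 or 3 or with only the compared groups in the fit (adjusted p 0.0619 to 0.102).

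Hnrnpd, Hnrnpu and Hnrnpll passed in some tumour types and not in others. Hnrnpd, which promotes decay of AU-rich mRNAs, differed by 0.41 ± 0.14 (adjusted p = 0.0338) in PDGF+p53-/-, 0.22 ± 0.14 (adjusted p = 0.27) in PDGF+p53-/-RBPjk-/- and 0.38 ± 0.14 (adjusted p = 0.0463) in p53-/-RBPjk-/- tumours. In PDGF+p53-/- tumours it no longer passed without PDGF+p53-/- replicates 1, 2 or 3 or control replicates 3 or 4, with housekeeping centring, with a second quantile normalization or with only the compared groups in the fit (adjusted p 0.0517 to 0.129). In p53-/-RBPjk-/- tumours it no longer passed without PDGF+p53-/- replicates 2 or 3, PDGF+p53-/-RBPjk-/- replicates 3 or 4, p53-/-RBPjk-/- replicates 1, 2, 3 or 4 or control replicates 3 or 4, with every probe set tested, with housekeeping centring, with a second quantile normalization, with only the compared groups in the fit or with a sex term (adjusted p 0.0531 to 0.16). Hnrnpu, a nuclear scaffold protein, differed by 0.35 ± 0.11 (adjusted p = 0.0186) in PDGF+p53-/-, 0.23 ± 0.11 (adjusted p = 0.118) in PDGF+p53-/-RBPjk-/- and 0.39 ± 0.11 (adjusted p = 0.00747) in p53-/-RBPjk-/- tumours. Hnrnpu in PDGF+p53-/- tumours no longer passed without PDGF+p53-/- replicate 1, with housekeeping centring or with a second quantile normalization (adjusted p 0.0511 to 0.122), and Hnrnpu passed in PDGF+p53-/-RBPjk-/- tumours without PDGF+p53-/-RBPjk-/- replicate 2 or with array weights (adjusted p 0.0284 to 0.0316). Hnrnpll, which governs splicing of the Ptprc gene in lymphocytes, differed by 0.35 ± 0.13 (adjusted p = 0.0554) in PDGF+p53-/-, 0.21 ± 0.13 (adjusted p = 0.258) in PDGF+p53-/-RBPjk-/- and 0.51 ± 0.13 (adjusted p = 0.00563) in p53-/-RBPjk-/- tumours. It passed in PDGF+p53-/- tumours without PDGF+p53-/- replicate 4, PDGF+p53-/-RBPjk-/- replicates 1 or 2 or control replicate 4, without dim genes, with a second quantile normalization, with array weights or with a sex term (adjusted p 0.023 to 0.0451) and in PDGF+p53-/-RBPjk-/- tumours without PDGF+p53-/-RBPjk-/- replicate 2 (adjusted p = 0.0404).

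The remaining 5 hnRNP genes passed in none of the 3 comparisons. Hnrnpc, which binds poly-U tracts and packages long transcripts, differed by -0.05 in PDGF+p53-/-, 0.11 in PDGF+p53-/-RBPjk-/- and 0.03 in p53-/-RBPjk-/- tumours (adjusted p 0.506 to 0.86). The 95% intervals of the Hnrnpc difference ran from -0.29 to 0.18, -0.13 to 0.35 and -0.21 to 0.27 in the same order. Hnrnpdl, a relative of Hnrnpd, differed by 0.19 in PDGF+p53-/-, 0.25 in PDGF+p53-/-RBPjk-/- and 0.06 in p53-/-RBPjk-/- tumours (adjusted p 0.156 to 0.753). Hnrnph2, the X-linked paralogue of Hnrnph1, differed by -0.20 in PDGF+p53-/-, -0.09 in PDGF+p53-/-RBPjk-/- and -0.17 in p53-/-RBPjk-/- tumours (adjusted p 0.263 to 0.639). Hnrnpul2 differed by -0.28 in PDGF+p53-/-, -0.13 in PDGF+p53-/-RBPjk-/- and -0.29 in p53-/-RBPjk-/- tumours (adjusted p 0.113 to 0.522), and its p53-/-RBPjk-/- arrays lay wholly below control brain. It passed as lower in PDGF+p53-/- tumours without PDGF+p53-/- replicate 4 or with a second quantile normalization (adjusted p 0.0347 to 0.0423) and in p53-/-RBPjk-/- tumours with a second quantile normalization (adjusted p = 0.0384). Hnrnpa0, whose values of 4.70 to 5.51 were dim, differed by 0.31 in PDGF+p53-/-, -0.06 in PDGF+p53-/-RBPjk-/- and 0.28 in p53-/-RBPjk-/- tumours (adjusted p 0.0732 to 0.782). It passed as higher in PDGF+p53-/- tumours without PDGF+p53-/- replicate 3 or control replicate 1 or with a second quantile normalization (adjusted p 0.0228 to 0.0497) and in p53-/-RBPjk-/- tumours with a second quantile normalization (adjusted p = 0.0366).

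Of the 9 SF3a and SF3b genes, 4 rose in PDGF+p53-/- tumours and 5 in each of the other tumour types, and none fell. The 5 include Sf3b4, whose probe sets disagreed, so that its direction is uncertain. Sf3b3, a large scaffold subunit of SF3b, measured 9.18, 9.20, 8.73 and 8.97 in PDGF+p53-/- tumours, 9.06, 9.25, 9.07 and 8.82 in PDGF+p53-/-RBPjk-/- tumours and 9.05, 9.40, 9.24 and 8.85 in p53-/-RBPjk-/- tumours, against 8.04, 8.18, 8.03 and 8.14 in control brain. All tumour arrays lay above all control arrays, and PDGF+p53-/- replicate 3 was lowest among the tumours. The Sf3b3 differences were 0.92 ± 0.14 (adjusted p = 5.44e-05) in PDGF+p53-/-, 0.95 ± 0.14 (adjusted p = 3.28e-05) in PDGF+p53-/-RBPjk-/- and 1.04 ± 0.14 (adjusted p = 9.85e-06) in p53-/-RBPjk-/- tumours, or 1.9-, 1.94- and 2.05-fold. Sf3a3, the subunit that anchors SF3a in the U2 particle, measured 8.64, 8.54, 8.15 and 8.22 in PDGF+p53-/- tumours, 8.74, 8.77, 8.65 and 8.66 in PDGF+p53-/-RBPjk-/- tumours and 8.81, 9.03, 9.10 and 8.74 in p53-/-RBPjk-/- tumours, against 7.69, 7.92, 7.75 and 7.82 in control brain. Control arrays were lowest, then the PDGF+p53-/- arrays without overlap, and the arrays of both RBPjk-/- types lay above those and overlapped each other. The Sf3a3 differences were 0.59 ± 0.12 (adjusted p = 0.00131) in PDGF+p53-/-, 0.91 ± 0.12 (adjusted p = 1.83e-05) in PDGF+p53-/-RBPjk-/- and 1.12 ± 0.12 (adjusted p = 1.33e-06) in p53-/-RBPjk-/- tumours. Sf3b6 is a subunit of SF3b. It measured 8.20, 8.12, 7.65 and 7.78 in PDGF+p53-/- tumours, 8.16, 7.61, 8.18 and 7.63 in PDGF+p53-/-RBPjk-/- tumours and 8.31, 7.92, 7.18 and 7.98 in p53-/-RBPjk-/- tumours, against 7.19, 7.58, 7.31 and 7.37 in control brain. The p53-/-RBPjk-/- arrays ran from 7.18, below all control arrays, to 8.31, and this was the widest SD of a member in any group (0.476). Sf3b6 differences were 0.57 ± 0.21 (adjusted p = 0.0456) in PDGF+p53-/-, 0.53 ± 0.21 (adjusted p = 0.0598) in PDGF+p53-/-RBPjk-/- and 0.48 ± 0.21 (adjusted p = 0.0809) in p53-/-RBPjk-/- tumours. In PDGF+p53-/- tumours it no longer passed without PDGF+p53-/- replicates 1, 2 or 4, p53-/-RBPjk-/- replicates 2 or 4 or control replicates 1, 3 or 4, with every probe set tested or with housekeeping centring (adjusted p 0.0521 to 0.135). It passed in PDGF+p53-/-RBPjk-/- tumours without PDGF+p53-/-RBPjk-/- replicates 2 or 4 or p53-/-RBPjk-/- replicates 1 or 3, without dim genes, with array weights or with only the compared groups in the fit (adjusted p 0.00589 to 0.0468) and in p53-/-RBPjk-/- tumours without p53-/-RBPjk-/- replicate 3, with housekeeping centring or with a second quantile normalization (adjusted p 0.00524 to 0.0463).

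Sf3a2, an SF3a subunit with a zinc finger, differed from control brain by 0.27 ± 0.11 (adjusted p = 0.0818) in PDGF+p53-/-, 0.49 ± 0.11 (adjusted p = 0.0024) in PDGF+p53-/-RBPjk-/- and 0.58 ± 0.11 (adjusted p = 0.000524) in p53-/-RBPjk-/- tumours, and passed in PDGF+p53-/- tumours without control replicate 2 or with a second quantile normalization (adjusted p 0.0273 to 0.0394). Sf3b5, a small SF3b subunit, differed by 0.39 ± 0.13 (adjusted p = 0.0299) in PDGF+p53-/-, 0.37 ± 0.13 (adjusted p = 0.0361) in PDGF+p53-/-RBPjk-/- and 0.43 ± 0.13 (adjusted p = 0.0135) in p53-/-RBPjk-/- tumours. The Sf3b5 call was lost in PDGF+p53-/- tumours without PDGF+p53-/- replicates 1 or 2 or control replicates 1, 3 or 4, with housekeeping centring or with only the compared groups in the fit (adjusted p 0.0544 to 0.108), in PDGF+p53-/-RBPjk-/- tumours without PDGF+p53-/-RBPjk-/- replicates 2, 3 or 4 or control replicates 1, 3 or 4, with housekeeping centring or with a sex term (adjusted p 0.0505 to 0.123) and in p53-/-RBPjk-/- tumours without p53-/-RBPjk-/- replicate 1 (adjusted p = 0.0547). Sf3a1, Sf3b1 and Sf3b2 passed in none of the 3 comparisons. Sf3b1, the HEAT-repeat subunit that is mutated in human leukaemias, differed by 0.25 in PDGF+p53-/-, 0.19 in PDGF+p53-/-RBPjk-/- and 0.27 in p53-/-RBPjk-/- tumours (adjusted p 0.0627 to 0.194). It passed in PDGF+p53-/- tumours without control replicate 2 (adjusted p = 0.0371) and in p53-/-RBPjk-/- tumours without control replicate 2, without dim genes, with array weights, with trended robust eBayes or with a replicate block (adjusted p 0.0232 to 0.0478). Sf3a1, which contacts the U1 particle, differed by 0.16 in PDGF+p53-/-, 0.30 in PDGF+p53-/-RBPjk-/- and 0.24 in p53-/-RBPjk-/- tumours (adjusted p 0.0855 to 0.404). It passed in PDGF+p53-/-RBPjk-/- tumours without control replicate 2 or with array weights (adjusted p 0.0167 to 0.0297) and in p53-/-RBPjk-/- tumours without control replicate 2 or with a second quantile normalization (adjusted p 0.0306 to 0.0347). Sf3b2 differed by -0.10 in PDGF+p53-/-, 0.12 in PDGF+p53-/-RBPjk-/- and 0.12 in p53-/-RBPjk-/- tumours (adjusted p 0.583 to 0.676), with overlapping arrays throughout.

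For 7 members the array held several probe sets, of which the brightest was used. Any of them, the brightest included, may read near-identical copies or pseudogenes of the same gene. Among members with a single probe set, the array's probe set numbers grouped by chromosome. By the nearest such number, the brightest probe sets of Hnrnpf, Hnrnpk, Sf3b4, Srsf3, Srsf5 and Srsf10 lay with other chromosomes than the gene's own. Each of these genes had another probe set numbered nearest to its own chromosome. The array values given for Hnrnpf, Srsf3 and Srsf10 come from the brightest ones. No probe set was aligned to the genome. For Sf3b4, which binds RNA upstream of the branch point, the probe sets disagreed. The brightest gave 0.28 ± 0.13 (adjusted p = 0.118) in PDGF+p53-/-, 0.36 ± 0.13 (adjusted p = 0.0396) in PDGF+p53-/-RBPjk-/- and 0.39 ± 0.13 (adjusted p = 0.0223) in p53-/-RBPjk-/- tumours. The other gave -0.34, 0.04 and -0.28 in the same order, so the direction for Sf3b4 is uncertain. The Sf3b4 call was also lost in PDGF+p53-/-RBPjk-/- tumours without PDGF+p53-/-RBPjk-/- replicates 1, 2 or 3 or control replicates 1, 2, 3 or 4, with the mean of its probe sets, with every probe set tested or with housekeeping centring (adjusted p 0.053 to 0.198) and in p53-/-RBPjk-/- tumours without p53-/-RBPjk-/- replicates 2 or 3 or control replicate 2, with the mean of its probe sets or with a sex term (adjusted p 0.0509 to 0.736). The 3 other probe sets of Hnrnpf gave 1.10, 1.11 and 1.14, 1.18, 1.24 and 1.18, and 1.21, 1.27 and 1.2, close to the values above. Those of Srsf3 gave 0.66, 0.75 and 0.74, and 0.93, 0.96 and 1.04, and the other one of Srsf10 gave 0.81, 0.92 and 1.44. Probe sets of Hnrnpk, Hnrnph2 and Srsf5 had the same sign as the chosen one in each comparison with control brain.

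Of the 36 members, 1 passed the test in a comparison between tumour types. Between PDGF+p53-/-RBPjk-/- and PDGF+p53-/- tumours, which differ by the deletion of RBPjk, 0 members passed in the limma fit (0.0201% of all genes) and 2 had an unadjusted p under 0.05. There 0.015% of all genes were higher and 0.00502% lower, and arrays did not overlap for 2 members that were higher and 1 that was lower (1.94% and 1.23% of all genes). Between p53-/-RBPjk-/- and PDGF+p53-/-RBPjk-/- tumours 0 passed (3.27% of all genes) and 4 had an unadjusted p under 0.05. There 0.637% of all genes were higher and 2.63% lower, and arrays did not overlap for 1 member that was higher and 0 that were lower (3.44% and 6.25% of all genes). Between p53-/-RBPjk-/- and PDGF+p53-/- tumours 1 member passed (5.54% of all genes), and 3 had an unadjusted p under 0.05. There 1.93% of all genes were higher and 3.61% lower, and arrays did not overlap for 4 members that were higher and 0 that were lower (4.66% and 5.08% of all genes). The member that passed was Sf3a3, higher in p53-/-RBPjk-/- tumours by 0.53 ± 0.12 (adjusted p = 0.0192), with a 95% interval of 0.27 to 0.79. Its p53-/-RBPjk-/- values (8.81, 9.03, 9.10 and 8.74) lay wholly above its PDGF+p53-/- values (8.64, 8.54, 8.15 and 8.22). The two-sided exact permutation test gave p = 0.0286, which no split of 8 arrays into 4 and 4 can go below. That permutation p follows from the lack of overlap and adds nothing to it. Hnrnpm, Sf3a2 and Srsf4 had the same permutation p in this comparison without passing in limma. The Sf3a3 call was lost without PDGF+p53-/- replicates 3 or 4 or p53-/-RBPjk-/- replicates 2 or 3, with only the compared groups in the fit or with a sex term (adjusted p 0.0509 to 0.146). Sf3a3 in PDGF+p53-/-RBPjk-/- tumours lay between, at 0.32 ± 0.12 (adjusted p = 0.855) from PDGF+p53-/- tumours, and p53-/-RBPjk-/- tumours were 0.21 ± 0.12 (adjusted p = 0.435) from it. Srsf10 differed by 0.39 ± 0.14 (adjusted p = 0.112) between p53-/-RBPjk-/- and PDGF+p53-/- tumours and passed with the mean of its probe sets (adjusted p = 0.0353). The other Srsf10 probe set alone gave 0.62 ± 0.17 in limma over every probe set (adjusted p = 0.0597). Its p53-/-RBPjk-/- values lay wholly above its PDGF+p53-/- values. Sf3a2 differed by 0.31 ± 0.11 (adjusted p = 0.133) and passed with housekeeping centring or with a second quantile normalization (adjusted p 0.0456 to 0.0465). Over the 36 members the log2 differences between tumour types ran from -0.37 to 0.32 for PDGF+p53-/-RBPjk-/- minus PDGF+p53-/-, from -0.19 to 0.41 for p53-/-RBPjk-/- minus PDGF+p53-/-RBPjk-/-, and from -0.23 to 0.53 for p53-/-RBPjk-/- minus PDGF+p53-/-. A p that misses the threshold does not show that the types were alike: the widest interval between PDGF types, that of Sf3b6, ran from -0.48 to 0.40.

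Averaged over the 36 members, the difference of each array from the control mean was 0.47, 0.48, 0.29 and 0.35 in PDGF+p53-/- tumours, 0.47, 0.44, 0.43 and 0.37 in PDGF+p53-/-RBPjk-/- tumours and 0.48, 0.51, 0.48 and 0.43 in p53-/-RBPjk-/- tumours, against -0.03, 0.10, -0.10 and 0.02 in control brain. Every tumour array lay above every control array, and PDGF+p53-/- replicate 3 lay lowest among the tumours. For Srsf genes this mean was 0.41, 0.36, 0.27 and 0.20 in PDGF+p53-/- tumours, 0.33, 0.46, 0.34 and 0.35 in PDGF+p53-/-RBPjk-/- tumours and 0.43, 0.38, 0.35 and 0.30 in p53-/-RBPjk-/- tumours, against -0.03, 0.08, -0.10 and 0.06 in control brain. For Hnrnp genes it was 0.50, 0.54, 0.37 and 0.44 in PDGF+p53-/- tumours, 0.53, 0.38, 0.45 and 0.39 in PDGF+p53-/-RBPjk-/- tumours and 0.49, 0.52, 0.56 and 0.47 in p53-/-RBPjk-/- tumours, against 0.02, 0.08, -0.10 and 0.00 in control brain. For SF3 genes it was 0.47, 0.50, 0.16 and 0.36 in PDGF+p53-/- tumours, 0.51, 0.54, 0.49 and 0.35 in PDGF+p53-/-RBPjk-/- tumours and 0.51, 0.62, 0.47 and 0.48 in p53-/-RBPjk-/- tumours, against -0.11, 0.18, -0.08 and 0.01 in control brain, where PDGF+p53-/- replicate 3 lay within the control range. Among the 20 members raised in PDGF+p53-/- tumours, replicate 3 gave the lowest of the 4 values for 10 and replicate 4 for 9. Over all genes the mean differed from control brain by -0.11 to 0.03 in tumour arrays. The median SD of members within a group was 0.162 in PDGF+p53-/-, 0.145 in PDGF+p53-/-RBPjk-/-, 0.128 in p53-/-RBPjk-/- and 0.137 in control arrays, where all genes had 0.202, 0.188, 0.203 and 0.186.

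The mean levels of marker lists differed between the same arrays. The neuron list mean (log2, 11 of 12 markers measured) was 6.96, 7.21, 8.57 and 7.03 in PDGF+p53-/- tumours, 7.23, 6.68, 8.09 and 7.17 in PDGF+p53-/-RBPjk-/- tumours and 6.06, 5.98, 7.45 and 6.48 in p53-/-RBPjk-/- tumours, against 10.43, 10.40, 10.46 and 10.51 in control brain, and PDGF+p53-/- replicate 3 was highest among tumours. The proliferation list mean (11 of 12 measured) was 9.24, 8.75, 8.57 and 9.15 in PDGF+p53-/- tumours, 9.29, 9.35, 8.96 and 8.93 in PDGF+p53-/-RBPjk-/- tumours and 9.48, 9.07, 9.16 and 9.09 in p53-/-RBPjk-/- tumours, against 5.94, 5.87, 5.84 and 6.12 in control brain, and the same array was lowest among tumours. Oligodendrocyte precursor markers (8 of 8 measured) ranged from 9.43 to 9.72, 9.45 to 9.62 and 9.07 to 9.62 in PDGF+p53-/-, PDGF+p53-/-RBPjk-/- and p53-/-RBPjk-/- tumours, against 7.04 to 7.23 in control brain. Astrocyte markers (8 of 8) ranged from 7.39 to 8.76, 7.49 to 8.08 and 7.01 to 7.49, against 9.18 to 9.40 in control brain. Oligodendrocyte markers (7 of 8) ranged from 6.36 to 8.69, 6.82 to 7.57 and 6.31 to 6.69, against 8.33 to 9.83. Myeloid markers (8 of 8) ranged from 7.15 to 8.09, 7.45 to 7.59 and 6.72 to 7.70, against 7.28 to 7.57. Endothelial markers (8 of 8) ranged from 6.53 to 6.96, 6.49 to 6.94 and 6.51 to 6.94, against 6.98 to 7.25. The part of these cell mixtures in the members' differences was not tested.

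**Figure D3:**
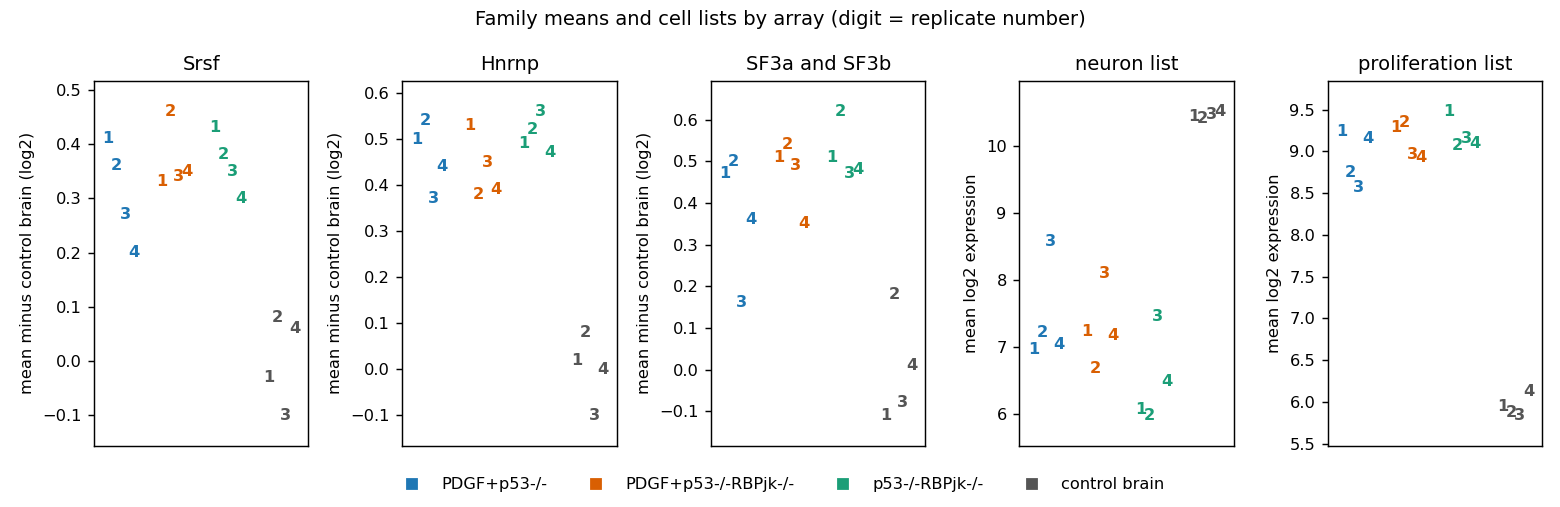
Each digit is 1 array, by replicate number, at the mean over the Srsf, Hnrnp or SF3a and SF3b members minus the control mean (log2, first 3 panels), or at the mean log2 value of the neuron and proliferation lists (last 2 panels). All tumour digits lie above control digits for Srsf and Hnrnp, and PDGF+p53-/- replicate 3 is the highest tumour array in the neuron panel (8.57) and the lowest in the proliferation panel (8.57).

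The rest of the splicing machinery was described with lists of other spliceosome genes and of splicing regulators. Over all genes, 13.6%, 15.7% and 16.4% were higher and 17.6%, 17.9% and 20.4% lower in PDGF+p53-/-, PDGF+p53-/-RBPjk-/- and p53-/-RBPjk-/- tumours. All 7 measured LSm proteins, which form the ring on U6 RNA and on decaying mRNA, rose in both PDGF types and 6 in p53-/-RBPjk-/- tumours, with medians of 0.92, 0.96 and 1.01. Lsm2 measured 7.74, 7.38, 7.31 and 7.45 in PDGF+p53-/- tumours, 7.81, 7.86, 7.69 and 7.68 in PDGF+p53-/-RBPjk-/- tumours and 7.94, 7.60, 7.95 and 7.51 in p53-/-RBPjk-/- tumours, against 5.95, 6.39, 6.23 and 6.19 in control brain. Its tumour and control values did not overlap. Lsm2 differences were 1.28 ± 0.13 (adjusted p = 1.27e-06) in PDGF+p53-/-, 1.57 ± 0.13 (adjusted p = 1.17e-07) in PDGF+p53-/-RBPjk-/- and 1.56 ± 0.13 (adjusted p = 7.1e-08) in p53-/-RBPjk-/- tumours. Those of Lsm5 were 1.47 in PDGF+p53-/-, 1.59 in PDGF+p53-/-RBPjk-/- and 1.53 in p53-/-RBPjk-/- tumours (adjusted p 5.69e-06 to 1.56e-05). The next list joins proteins of the U1 particle with the Sm proteins, which form the core of spliceosomal particles. Of 9 measured U1 and Sm proteins, the number that rose was 4 in PDGF+p53-/-, 5 in PDGF+p53-/-RBPjk-/- and 5 in p53-/-RBPjk-/- tumours and none fell, with medians of 0.50, 0.59 and 0.46. Snrpe, an Sm core protein, differed by 1.28 in PDGF+p53-/-, 1.27 in PDGF+p53-/-RBPjk-/- and 1.83 in p53-/-RBPjk-/- tumours (adjusted p 1.11e-06 to 8.5e-05). Snrpd3, another, differed by 0.55 in PDGF+p53-/-, 0.78 in PDGF+p53-/-RBPjk-/- and 0.97 in p53-/-RBPjk-/- tumours (adjusted p 0.00132 to 0.0585). Snrpd3 passed in PDGF+p53-/- tumours without PDGF+p53-/- replicates 3 or 4, p53-/-RBPjk-/- replicate 1 or control replicate 2 (adjusted p 0.0176 to 0.049). Of 11 genes of the U2 particle and the 3′ splice site, the number that rose was 7 in PDGF+p53-/-, 9 in PDGF+p53-/-RBPjk-/- and 7 in p53-/-RBPjk-/- tumours and none fell, with medians of 0.43, 0.52 and 0.69. Dhx15, a helicase that disassembles spliceosomes, differed by 0.80 in PDGF+p53-/-, 0.75 in PDGF+p53-/-RBPjk-/- and 0.93 in p53-/-RBPjk-/- tumours (adjusted p 1.72e-05 to 0.000197). Snrpa1, a U2 protein, differed by 0.77 in PDGF+p53-/-, 0.95 in PDGF+p53-/-RBPjk-/- and 1.27 in p53-/-RBPjk-/- tumours (adjusted p 3.71e-05 to 0.00471).

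Of 15 measured tri-snRNP genes, whose products carry U4, U5 and U6 into the spliceosome, the number that rose was 6 in PDGF+p53-/-, 8 in PDGF+p53-/-RBPjk-/- and 7 in p53-/-RBPjk-/- tumours and none fell, with medians of 0.32, 0.39 and 0.28. That count was 3 without PDGF+p53-/- replicate 1, 2 without control replicate 1 and 3 without control replicate 3 in PDGF+p53-/- tumours, and 4 without PDGF+p53-/-RBPjk-/- replicate 2, 5 without PDGF+p53-/-RBPjk-/- replicate 4, 3 without control replicate 1 and 3 without control replicate 3 in PDGF+p53-/-RBPjk-/- tumours. The lowest of these counts, 2 and 3 of 15, lay near the shares of all genes that were higher with all arrays, 13.6% and 15.7%. 1 tri-snRNP gene fell, where none did with all arrays, in PDGF+p53-/- and in p53-/-RBPjk-/- tumours without PDGF+p53-/-RBPjk-/- replicate 2. Ppih, a cyclophilin of the tri-snRNP, differed by 0.68 in PDGF+p53-/-, 1.15 in PDGF+p53-/-RBPjk-/- and 1.40 in p53-/-RBPjk-/- tumours (adjusted p 0.000104 to 0.035), with control values from 8.48 to 9.53. In PDGF+p53-/- tumours it no longer passed without PDGF+p53-/- replicates 1, 2 or 4 or control replicates 1 or 2 (adjusted p 0.0641 to 0.13). Prpf3, a U4 and U6 protein, differed by 0.62 in PDGF+p53-/-, 0.59 in PDGF+p53-/-RBPjk-/- and 1.23 in p53-/-RBPjk-/- tumours (adjusted p 6.86e-05 to 0.0269). Its call was lost in PDGF+p53-/- tumours without PDGF+p53-/- replicate 1 or control replicates 1 or 3 (adjusted p 0.0592 to 0.081) and in PDGF+p53-/-RBPjk-/- tumours without PDGF+p53-/-RBPjk-/- replicates 1 or 4 or control replicates 1 or 3 (adjusted p 0.054 to 0.0852). Of 19 measured genes of the Prp19 complex and the catalytic steps, the number that rose was 5 in PDGF+p53-/-, 11 in PDGF+p53-/-RBPjk-/- and 11 in p53-/-RBPjk-/- tumours and none fell, with medians of 0.32, 0.41 and 0.40. It was 10 without PDGF+p53-/- replicate 3 in PDGF+p53-/- tumours, 7 without PDGF+p53-/-RBPjk-/- replicate 1, 6 without PDGF+p53-/-RBPjk-/- replicate 2, 5 without control replicate 1 and 6 without control replicate 3 in PDGF+p53-/-RBPjk-/- tumours, and 7 without p53-/-RBPjk-/- replicate 1, 6 without p53-/-RBPjk-/- replicate 2 and 6 without control replicate 1 in p53-/-RBPjk-/- tumours. Leaving out 1 array, the number that fell was 1 without control replicate 1 in PDGF+p53-/- tumours and 1 without PDGF+p53-/-RBPjk-/- replicate 4 or control replicate 1 in PDGF+p53-/-RBPjk-/- tumours. Aqr, an intron-binding helicase, differed by 0.91 in PDGF+p53-/-, 0.89 in PDGF+p53-/-RBPjk-/- and 0.82 in p53-/-RBPjk-/- tumours (adjusted p 3.91e-05 to 7.85e-05). Ppie, a cyclophilin, differed by 0.74 in PDGF+p53-/-, 0.98 in PDGF+p53-/-RBPjk-/- and 1.14 in p53-/-RBPjk-/- tumours (adjusted p 1.39e-05 to 0.00129).

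Of 10 SR-related genes, the number that rose was 5 in PDGF+p53-/-, 6 in PDGF+p53-/-RBPjk-/- and 7 in p53-/-RBPjk-/- tumours and none fell, with medians of 0.32, 0.39 and 0.49. Srek1, an SR-related regulator, differed by 0.64 in PDGF+p53-/-, 0.72 in PDGF+p53-/-RBPjk-/- and 1.16 in p53-/-RBPjk-/- tumours (adjusted p 3.82e-07 to 0.000358). Tra2a, a homologue of the fly sex determination factor transformer-2, differed by 0.68 in PDGF+p53-/-, 0.86 in PDGF+p53-/-RBPjk-/- and 0.84 in p53-/-RBPjk-/- tumours (adjusted p 2.13e-05 to 0.000258). Of 9 measured hnRNPs that carry other symbols, the number that rose was 7 in PDGF+p53-/-, 8 in PDGF+p53-/-RBPjk-/- and 6 in p53-/-RBPjk-/- tumours, and 0, 0 and 1 fell, with medians of 0.56, 0.66 and 0.76. Ptbp1, which represses neuronal exons in other cells, measured 7.70, 7.93, 7.28 and 7.87 in PDGF+p53-/- tumours, 7.65, 8.22, 7.96 and 8.05 in PDGF+p53-/-RBPjk-/- tumours and 7.84, 8.35, 7.94 and 8.04 in p53-/-RBPjk-/- tumours, against 6.12, 6.48, 6.66 and 6.90 in control brain. All tumour arrays lay above all control arrays. Ptbp1 differences were 1.16 ± 0.18 (adjusted p = 8.48e-05) in PDGF+p53-/-, 1.43 ± 0.18 (adjusted p = 7.88e-06) in PDGF+p53-/-RBPjk-/- and 1.5 ± 0.18 (adjusted p = 3.42e-06) in p53-/-RBPjk-/- tumours. Rbmx differed by 0.93 in PDGF+p53-/-, 1.05 in PDGF+p53-/-RBPjk-/- and 1.08 in p53-/-RBPjk-/- tumours (adjusted p 0.000146 to 0.000793). Cirbp, a cold-induced RNA-binding protein, differed by -0.23 in PDGF+p53-/-, -0.16 in PDGF+p53-/-RBPjk-/- and -0.84 in p53-/-RBPjk-/- tumours and fell in p53-/-RBPjk-/- tumours (adjusted p = 0.00754).

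The list of 17 neuronal splicing regulators held mostly lower genes: 12 fell in PDGF+p53-/-, 12 in PDGF+p53-/-RBPjk-/- and 11 in p53-/-RBPjk-/- tumours, and 2 rose in each, with medians of -0.69, -0.72 and -0.86. Celf4 measured 6.27, 6.18, 7.38 and 6.09 in PDGF+p53-/- tumours, 6.45, 6.38, 6.98 and 6.43 in PDGF+p53-/-RBPjk-/- tumours and 5.60, 5.80, 6.73 and 6.03 in p53-/-RBPjk-/- tumours, against 9.34, 8.99, 9.42 and 9.30 in control brain. Control values lay far above all tumour values, and PDGF+p53-/- replicate 3 was highest among tumours. Celf4 differences were -2.78 ± 0.26 (adjusted p = 4.47e-07) in PDGF+p53-/-, -2.70 ± 0.26 (adjusted p = 4.86e-07) in PDGF+p53-/-RBPjk-/- and -3.22 ± 0.26 (adjusted p = 4.08e-08) in p53-/-RBPjk-/- tumours. Rbfox1, which binds UGCAUG beside neuronal and muscle exons, differed by -2.25 in PDGF+p53-/-, -2.48 in PDGF+p53-/-RBPjk-/- and -3.30 in p53-/-RBPjk-/- tumours (adjusted p 2.97e-08 to 3.75e-06). The exceptions were Nova1 and Ptbp2. Nova1, a regulator of synaptic transcripts, measured 12.30, 12.16, 11.75 and 11.35 in PDGF+p53-/- tumours, 11.90, 11.73, 11.77 and 11.77 in PDGF+p53-/-RBPjk-/- tumours and 12.07, 11.78, 11.55 and 11.99 in p53-/-RBPjk-/- tumours, against 10.27, 10.26, 9.94 and 10.48 in control brain. Its tumour arrays all lay above control brain, with differences of 1.65 in PDGF+p53-/-, 1.55 in PDGF+p53-/-RBPjk-/- and 1.61 in p53-/-RBPjk-/- tumours (adjusted p 1.36e-06 to 2.93e-06). Ptbp2, the paralogue of Ptbp1 in developing neurons, differed by 0.41 in PDGF+p53-/-, 0.36 in PDGF+p53-/-RBPjk-/- and 0.38 in p53-/-RBPjk-/- tumours (adjusted p 0.0116 to 0.0248). Its call was lost in PDGF+p53-/-RBPjk-/- tumours without PDGF+p53-/-RBPjk-/- replicate 4 or control replicate 2 (adjusted p 0.0581 to 0.0827) and in p53-/-RBPjk-/- tumours without p53-/-RBPjk-/- replicate 1 or control replicate 2 (adjusted p 0.0596 to 0.065). All 11 measured neuron markers fell in the same comparisons, and their part in the fall of this list was not tested.

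**Figure D4:**
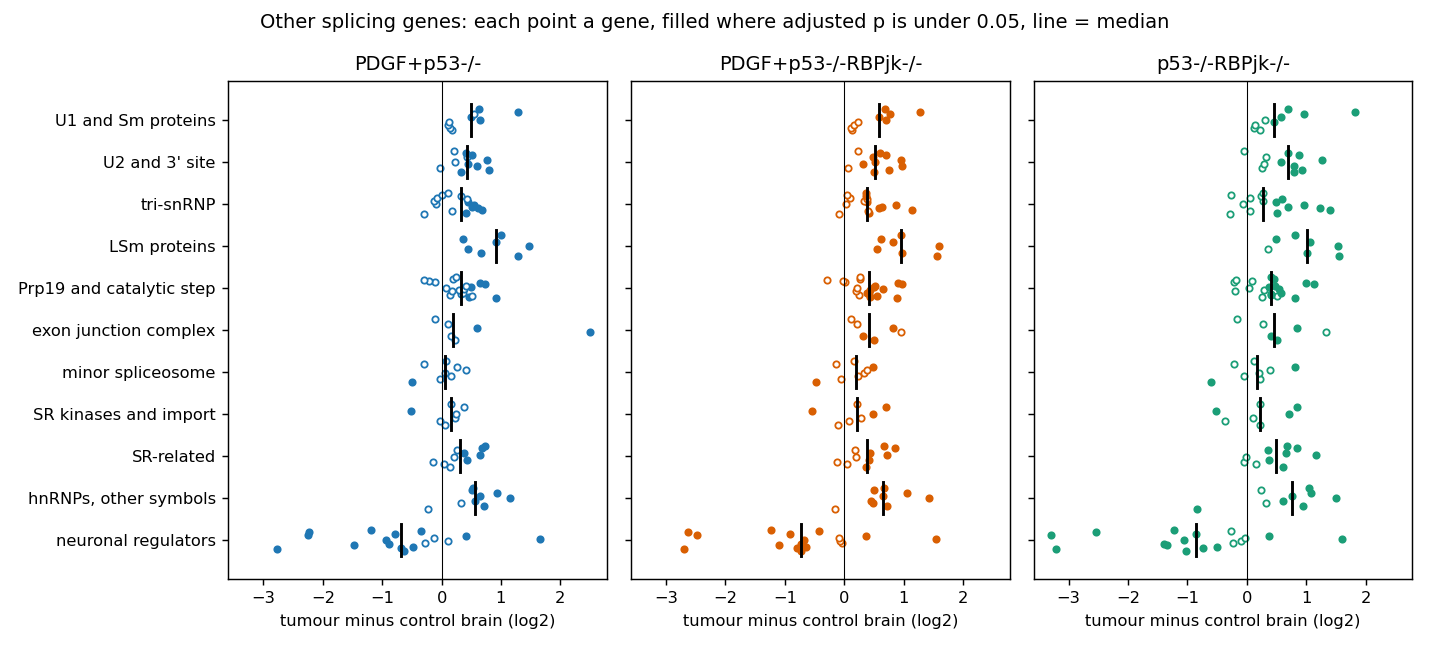
Each point is 1 gene of a list (rows), at its difference of mean log2 values, tumour minus control brain (horizontal axis), with a panel for each tumour type; filled points have an adjusted p under 0.05 and the black line is the list's median. LSm proteins have the medians farthest right (0.92, 0.96 and 1.01), and neuronal regulators are the list with medians left of 0 (-0.69, -0.72 and -0.86).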

How the data were processed

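The deposited values are log2 expression per probe set, which the submitters' processing notes credit to RMA and oligo, without versions. RMA gives all arrays a like distribution, so a change in the total amount of RNA cannot be seen, and the 16 arrays, 4 per group, limit the precision. All deposited columns were used, and 0 were left out. Of 35556 probe sets the annotation listed 23410, of which 21789 named 1 gene, 1621 several and the other 12146 were unnamed here. Only those with 1 gene were used, and each gene was read from its brightest probe set over all arrays, which gave 19936 genes.

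Differences came from 1 limma fit (limma 3.58.1, R 4.3.3) over the 4 groups with moderated variances, and p-values were adjusted by Benjamini-Hochberg over all 19936 genes for each of 6 comparisons, with a threshold of 0.05. The fitting was tested on simulated data. Promoter windows came from RefSeq.

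The members, gene lists and tests were chosen with earlier results of these data known. Values of every array are given for the members with the largest mean difference from control brain that passed at least once, up to 5 that rose and 3 that fell for Srsf and for Hnrnp, and up to 3 and 2 for SF3a with SF3b, and for members that passed between tumour types. Members that passed in no comparison with control brain are named with their differences, and the other members were named so that all are accounted for. Up to 2 genes with the largest rise and 2 with the largest fall are named of each list.

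The alternatives were the mean of a gene's probe sets, every probe set tested, a filter on dim genes (log2 under 6), centring on 9 housekeeping genes, a second quantile normalization, array weights, trended robust eBayes, only the compared groups in the fit, a replicate block, a sex term, and leaving out each of the 16 arrays. With every probe set tested, a gene was still read from its brightest one, and the fit and the p adjustment ran over all probe sets.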

Additional observations from a re-analysis of the deposited data

Results flagged for a closer look

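In 5 of 144 sets of 4 arrays (36 members in 4 groups), 1 array lay far from the other 3 by Dixon's test at 95%, where chance alone would give about 7.2, which is 1 in 20. PDGF+p53-/- replicate 3 was the array for 3 of the 5. It measured 10.63 for Hnrnpab, where the median of the other 3 was 11.10. For Hnrnpf it measured 10.98, where the others had a median of 11.51, and for Srsf4 9.38, where they had 9.62. In p53-/-RBPjk-/- tumours, replicate 1 was high for Sf3b5, at 8.59 beside a median of 8.19, and replicate 4 was low for Srsf11, at 9.18 beside 9.31.

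Sf3a3 was the member whose difference between tumour types passed the limma test, at 0.53 on the log2 scale for p53-/-RBPjk-/- minus PDGF+p53-/- (adjusted p = 0.0192), and all 4 p53-/-RBPjk-/- arrays lay above all 4 PDGF+p53-/- arrays.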

How the results depend on the processing

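The number of changed members kept within 1.5 times its value in each comparison with control brain. Leaving out 1 array gave 17 to 23 in PDGF+p53-/-, 18 to 22 in PDGF+p53-/-RBPjk-/- and 21 to 24 in p53-/-RBPjk-/- tumours, and the other settings gave 17 to 23, 17 to 24 and 21 to 28. The number of members lower than control brain was 2 in PDGF+p53-/- tumours (with Hnrnpul2) and 3 in p53-/-RBPjk-/- tumours (with Hnrnpul2 and Srsf5) after a second quantile normalization, and 1 to 2 in both when 1 array was left out, the 2 without PDGF+p53-/- replicate 4. Between p53-/-RBPjk-/- and PDGF+p53-/- tumours the number changed, all of them higher, was 2 with the mean of the probe sets, housekeeping centring or a second quantile normalization, 0 with only the compared groups or a sex term, and 0 to 1 when 1 array was left out, with 0 without PDGF+p53-/- replicates 3 or 4 or p53-/-RBPjk-/- replicates 2 or 3. In limma the other comparisons between tumour types gave 0 under every setting run. The Sf3b4 difference in p53-/-RBPjk-/- tumours was -0.28 from its other probe set, an alternative added after seeing the data. The cause of these shifts was not tested. Over all 36 members, 6 comparisons and all planned settings, 88 of 5610 values lost their call, 61 gained one and 5461 did neither, and 18 members had such a shift. No called difference turned direction in these settings, none of which read a member from its other probe set alone. The replicate block gave 21, 21 and 24 changed members in the comparisons with control brain, in the order above, and 0, 0 and 1 between tumour types. Same-numbered arrays correlated at -0.121 to 0.182 and at most 2 of 4 correlated best with their own number, so the numbers were not taken to pair the samples. Arrays numbered 3 correlated at 0.176, 0.156 and 0.169 between tumour types, and at 0.028, -0.095 and -0.057 with control brain. What the arrays numbered 3 share was not tested. Housekeeping centring moved the median of all genes by 0.13 for p53-/-RBPjk-/- minus PDGF+p53-/-RBPjk-/-. There the share of calls over all genes that were higher was 48.8% with that centring and 34.5% after a second quantile normalization, where the fit as reported had 19.5%; for p53-/-RBPjk-/- minus PDGF+p53-/- it was 57.6% and 47.7%, where the fit as reported had 34.8%. The filter on dim genes dropped Hnrnpa0, and dim members are measured closest to background.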

Other observations

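The exon junction complex marks spliced junctions, and of its 6 measured genes the number that rose was 2 in PDGF+p53-/-, 3 in PDGF+p53-/-RBPjk-/- and 3 in p53-/-RBPjk-/- tumours and none fell, with medians of 0.19, 0.41 and 0.46. Of all genes, 13.6%, 15.7% and 16.4% were higher in the same order, and 6 genes are few to set beside these shares. Rbm8a, a core subunit, measured 9.65, 9.27, 8.93 and 9.22 in PDGF+p53-/- tumours, 9.42, 9.63, 9.44 and 9.50 in PDGF+p53-/-RBPjk-/- tumours and 9.63, 9.54, 9.63 and 9.21 in p53-/-RBPjk-/- tumours, against 8.43, 8.87, 8.66 and 8.69 in control brain. Its tumour and control values did not overlap. Rbm8a differences were 0.60 ± 0.15 (adjusted p = 0.00401) in PDGF+p53-/-, 0.83 ± 0.15 (adjusted p = 0.000233) in PDGF+p53-/-RBPjk-/- and 0.84 ± 0.15 (adjusted p = 0.000175) in p53-/-RBPjk-/- tumours. Eif4a3, the helicase that clamps the complex on RNA, measured 9.30, 9.02, 8.77 and 9.79 in PDGF+p53-/- tumours, 8.19, 6.09, 7.42 and 8.96 in PDGF+p53-/-RBPjk-/- tumours and 8.86, 6.22, 8.82 and 8.27 in p53-/-RBPjk-/- tumours, against 7.86, 7.66, 6.38 and 4.96 in control brain. Both the controls and 2 tumour types spread over more than 2 log2 units. Eif4a3 differences were 2.50 ± 0.67 (adjusted p = 0.00739) in PDGF+p53-/-, 0.95 ± 0.67 (adjusted p = 0.314) in PDGF+p53-/-RBPjk-/- and 1.33 ± 0.67 (adjusted p = 0.137) in p53-/-RBPjk-/- tumours, and it passed in p53-/-RBPjk-/- tumours without p53-/-RBPjk-/- replicate 2 (adjusted p = 0.0224).

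The minor spliceosome, which removes a rare class of introns, had 8 measured genes, of which the number that rose was 0 in PDGF+p53-/-, 1 in PDGF+p53-/-RBPjk-/- and 1 in p53-/-RBPjk-/- tumours, and 1, 1 and 1 fell, with medians of 0.06, 0.20 and 0.16. These counts lie near the shares of all genes, of which 13.6%, 15.7% and 16.4% were higher and 17.6%, 17.9% and 20.4% lower. Leaving out 1 array, the number that rose was 1 without PDGF+p53-/- replicate 3 or p53-/-RBPjk-/- replicate 1 in PDGF+p53-/- tumours, 2 without p53-/-RBPjk-/- replicate 1 in PDGF+p53-/-RBPjk-/- tumours, and 2 without p53-/-RBPjk-/- replicates 2 or 4 in p53-/-RBPjk-/- tumours. The number that fell was 2 without PDGF+p53-/- replicate 2 in PDGF+p53-/- tumours. With all arrays, Pdcd7 was the gene that fell, and measured 6.96, 6.89, 6.78 and 6.78 in PDGF+p53-/- tumours, 6.88, 6.78, 7.0 and 6.85 in PDGF+p53-/-RBPjk-/- tumours and 6.75, 6.69, 6.83 and 6.73 in p53-/-RBPjk-/- tumours, against 7.37, 7.35, 7.30 and 7.38 in control brain. All tumour arrays lay below all control arrays. Its differences were -0.50 ± 0.09 (adjusted p = 0.000512) in PDGF+p53-/-, -0.47 ± 0.09 (adjusted p = 0.000721) in PDGF+p53-/-RBPjk-/- and -0.60 ± 0.09 (adjusted p = 5.98e-05) in p53-/-RBPjk-/- tumours. Those of Snrnp48 were 0.26 in PDGF+p53-/-, 0.49 in PDGF+p53-/-RBPjk-/- and 0.82 in p53-/-RBPjk-/- tumours (adjusted p 5.53e-05 to 0.15). SR proteins are phosphorylated by SRPK and CLK kinases, and of 7 measured kinase and import genes the number that rose was 0 in PDGF+p53-/-, 2 in PDGF+p53-/-RBPjk-/- and 2 in p53-/-RBPjk-/- tumours, and 1, 1 and 1 fell, with medians of 0.16, 0.21 and 0.22. With 7 genes these counts, too, lie near the shares of all genes. Srpk1 differed by 0.25 ± 0.11 (adjusted p = 0.114) in PDGF+p53-/-, 0.48 ± 0.11 (adjusted p = 0.00293) in PDGF+p53-/-RBPjk-/- and 0.71 ± 0.11 (adjusted p = 7.99e-05) in p53-/-RBPjk-/- tumours. Srpk3, known from muscle, differed by 0.38 in PDGF+p53-/-, 0.70 in PDGF+p53-/-RBPjk-/- and 0.85 in p53-/-RBPjk-/- tumours (adjusted p 0.0124 to 0.291), and its call in PDGF+p53-/-RBPjk-/- tumours was lost without PDGF+p53-/-RBPjk-/- replicates 2 or 4 or control replicates 1, 2 or 3 (adjusted p 0.0574 to 0.147). Srpk2, a kinase abundant in brain, differed by -0.51 in PDGF+p53-/-, -0.55 in PDGF+p53-/-RBPjk-/- and -0.52 in p53-/-RBPjk-/- tumours (adjusted p 0.0287 to 0.0436). Its call was lost in PDGF+p53-/- tumours without PDGF+p53-/- replicates 1, 2, 3 or 4, PDGF+p53-/-RBPjk-/- replicates 1, 2, 3 or 4 or control replicates 1, 2, 3 or 4 (adjusted p 0.0514 to 0.112), in PDGF+p53-/-RBPjk-/- tumours without PDGF+p53-/-RBPjk-/- replicates 1, 2 or 3 or control replicates 2 or 4 (adjusted p 0.053 to 0.0789) and in p53-/-RBPjk-/- tumours without p53-/-RBPjk-/- replicates 2, 3 or 4 or control replicates 2, 3 or 4 (adjusted p 0.0522 to 0.125). The number of kinase and import genes that fell in p53-/-RBPjk-/- tumours was 0 without p53-/-RBPjk-/- replicates 3 or 4 or control replicates 2, 3 or 4 and 2 without PDGF+p53-/- replicate 4, PDGF+p53-/-RBPjk-/- replicate 2 or control replicate 1.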
